A study of Homo sapiens with 6 samples.

Results

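Genes of the developmental transcription factor families were examined in A375 cells, an established human melanoma line, as wildtype cells (WT, 3 libraries) and as cells overexpressing CYGB (CYGB-OE, 3 libraries). The CYGB product, cytoglobin, is a globin that carries haem, and the column headers give the overexpressed gene as hCYGB. All cells were untreated, and the labels name no empty vector control, promoter, clone or pool for the CYGB-OE line. Members were the rows of the deposited count table whose gene name begins with HOX, SOX, FOX, PAX, TBX, LHX, NKX, MEIS, PRRX, DLX, MSX, POU, GATA, KLF, ETV, ELF, IRX, LMX, BARX, ZIC or TFAP2 or with the prefix of the sine oculis homeobox genes (as in SIX2), for most families followed by a member number, and holds no hyphen. This gave 29 of 2778 rows, all protein-coding in GENCODE release 29, whose whole annotation holds 231 protein-coding genes that match the same rule. The other matching genes were not analysed here.

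Transcription factors of these families bind DNA through a shared fold, such as the homeodomain, the forkhead, the HMG box of SOX proteins, the T-box, the ETS domain or zinc fingers. They are known for setting cell identity and position in the embryo, and melanocytes arise from the neural crest, a tissue in which DLX, MSX and SOX genes are active. Several are also switched on again in tumours. By family, 14 members were homeobox genes, 6 forkhead genes, 2 SOX genes, 2 T-box genes, 2 ETS genes, 2 zinc finger genes (GATA3 and KLF7) and 1 a paired box gene (PAX2).

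The log2 ratios of the group means leave an empty band 1.99 wide. The groups were set level at its centre, on the untested assumption that the centre stands for no change. With that scaling the deposited table holds only rows whose group means differed about 2-fold or more, with no row between log2 ratios of -0.995 and 0.995. A call is therefore nearly assured for any row, and column totals of 1533260 to 2801576 counts are not library depths. Values below are normalised counts, which are counts divided by a library factor, and log2 fold changes of CYGB-OE over WT from edgeR's quasi-likelihood test with Benjamini-Hochberg adjustment over all 2468 rows tested and a threshold of 0.05. The labels do not say whether a group's libraries come from separate cultures, and p-values cover the spread between libraries, which may be technical. In bulk RNA, fewer cells of a type and less RNA per cell cannot be told apart. CYGB itself rose from 37.6 ± 1.56 to 23684 ± 460 normalised counts (SD, n = 3 each). CYGB-OE replicate 1 stood apart: its median absolute log2 difference per row was 0.467 to replicate 2 and 0.475 to replicate 3, and that between replicates 2 and 3 was 0.223. Of the melanocyte markers listed, 5 of 16 were in the table. Their summed level was 6825 to 7466 normalised counts in WT and 2832 to 3317 in CYGB-OE. DCT had 0 counts in the CYGB-OE libraries. The 4 markers tested were all called lower, at a median log2 fold change of -1.46. These calls rest on the scaling. With TMM factors computed over the whole table, the median was -0.26 and no marker was called lower. S100A1, the most abundant of the 5, went from -1.11 to 0.09 with that scaling. The part of any such shift in the results was not tested.

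Of the 29 members, 27 passed the filter on low counts; 8 rose and 19 fell in CYGB-OE. Of all rows tested, 28.9% were called higher and 70.9% lower (99.8% either way), so the members' shares of 29.6% and 70.4% were near the background. The 8 that rose were the homeobox genes PRRX1, MEIS2, MSX1, DLX1, DLX2 and SIX2, the forkhead gene FOXR2 and GATA3. Over all 29 members without the filter the median log2 fold change was -1.53, against -1.32 over all rows. In all 29 members, 8 higher and 21 lower, the CYGB-OE and WT libraries did not overlap, which also held for 98.3% of the table's rows (28.3% higher and 70.1% lower). Separate groups, where given below for a single member, are therefore a trait of nearly every row. Without CYGB-OE replicate 1, 8 members rose and 21 fell, against 28.1% and 70.8% of all rows tested, and when adjusted over all 58780 annotated genes 6 rose and 16 fell, against 19.4% and 54.3%. With TMM factors computed over the whole table, which raise every log2 fold change by about 1.20, 8 members were higher and 5 lower past the threshold, against 28.9% and 19.4% of all rows. Those 5 were ELF3, POU2F2, TBX19, FOXO6 and FOXL1, and the other 14 lower calls were lost with that scaling.

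**Figure D1:**
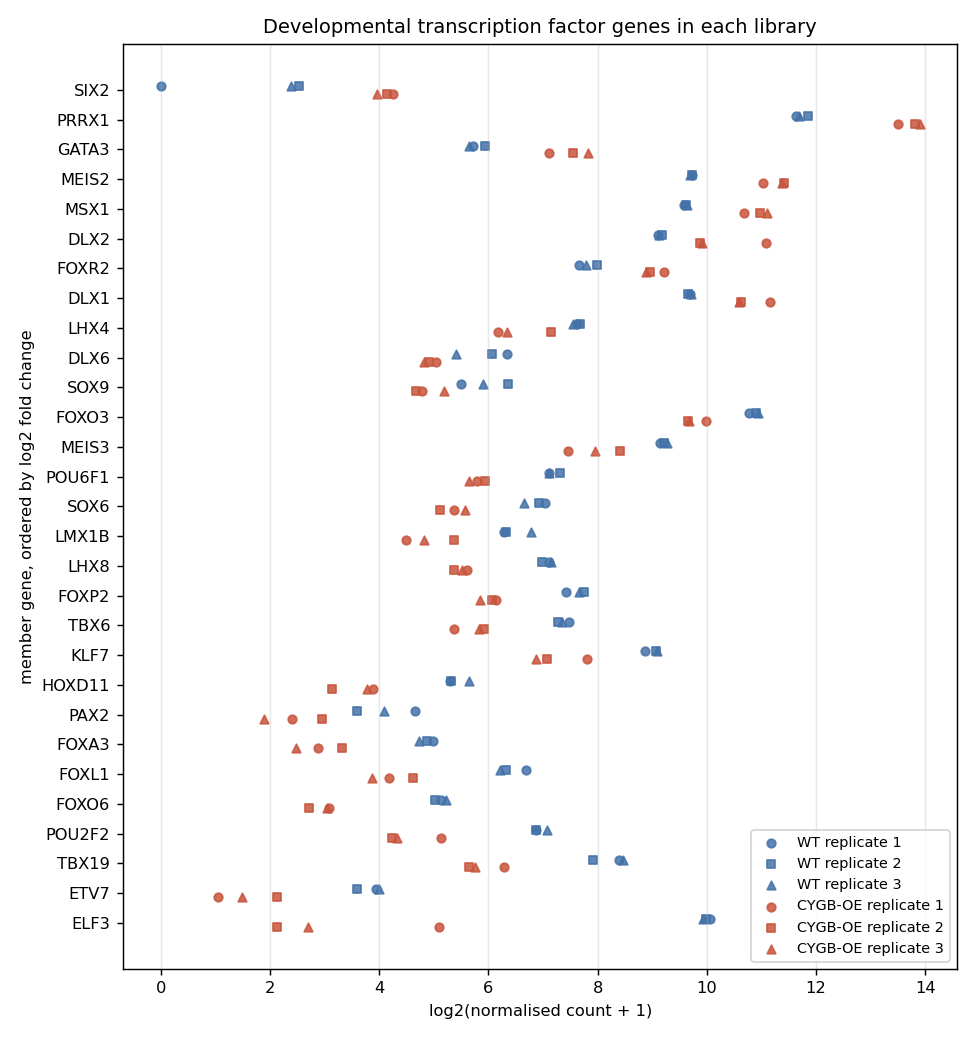
Each point is 1 library, with log2(normalised count + 1) on the horizontal axis and the 29 members, ordered by log2 fold change, on the vertical axis; blue marks WT, red CYGB-OE, and the marker shape gives the replicate. SIX2, at the top, has 0 counts in WT replicate 1, and ELF3, at the bottom, is higher in CYGB-OE replicate 1 than in replicates 2 and 3.

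The promoters of 6 members are printed because these genes rose with the highest levels or fell most and have a single RefSeq start in the reference. Each run is the 250 bases before the RefSeq start, 5′ to 3′ on the gene's own strand, from RefSeq on GRCh38.p14. Capitals mark any match, on either strand, to the homeodomain core TAATTA, the MEIS core TGACAG, the TATA box TATAAA, the GC box GGGCGG (the kind of site bound by KLF and SP factors), the forkhead core GTAAACA or the GATA core AGATAA, with overlapping matches each counted. The windows lie at chr1:170663881-170664130, plus strand (PRRX1), chr4:4859415-4859664, plus strand (MSX1), chr2:172085257-172085506, plus strand (DLX1), chr2:172102901-172103150, minus strand (DLX2), chr1:202010337-202010586, plus strand (ELF3) and chr1:168280627-168280876, plus strand (TBX19).
PRRX1: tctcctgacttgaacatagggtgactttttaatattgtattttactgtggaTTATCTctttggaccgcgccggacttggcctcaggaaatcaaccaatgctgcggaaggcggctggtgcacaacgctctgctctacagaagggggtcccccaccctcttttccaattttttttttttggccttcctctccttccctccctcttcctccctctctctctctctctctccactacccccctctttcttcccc
MSX1: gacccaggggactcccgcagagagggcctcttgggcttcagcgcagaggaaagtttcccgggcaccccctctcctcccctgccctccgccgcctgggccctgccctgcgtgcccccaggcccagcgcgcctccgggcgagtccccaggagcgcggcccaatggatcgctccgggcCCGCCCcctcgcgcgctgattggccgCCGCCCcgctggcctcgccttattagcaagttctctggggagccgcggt
DLX1: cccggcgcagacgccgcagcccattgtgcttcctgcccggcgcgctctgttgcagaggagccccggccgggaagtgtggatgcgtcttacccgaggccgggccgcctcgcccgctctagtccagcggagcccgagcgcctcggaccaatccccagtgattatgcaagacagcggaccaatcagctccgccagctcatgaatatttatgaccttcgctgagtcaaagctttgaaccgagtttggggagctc
DLX2: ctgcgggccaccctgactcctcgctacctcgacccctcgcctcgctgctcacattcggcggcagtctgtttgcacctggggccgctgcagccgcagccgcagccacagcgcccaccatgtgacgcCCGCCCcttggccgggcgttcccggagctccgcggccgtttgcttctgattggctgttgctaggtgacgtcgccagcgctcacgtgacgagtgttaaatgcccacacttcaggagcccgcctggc
ELF3: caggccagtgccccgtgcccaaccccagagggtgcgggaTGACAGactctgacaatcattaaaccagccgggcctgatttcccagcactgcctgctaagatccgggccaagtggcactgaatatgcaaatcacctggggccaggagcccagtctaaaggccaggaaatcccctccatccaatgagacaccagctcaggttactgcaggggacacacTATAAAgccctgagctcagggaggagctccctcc
TBX19: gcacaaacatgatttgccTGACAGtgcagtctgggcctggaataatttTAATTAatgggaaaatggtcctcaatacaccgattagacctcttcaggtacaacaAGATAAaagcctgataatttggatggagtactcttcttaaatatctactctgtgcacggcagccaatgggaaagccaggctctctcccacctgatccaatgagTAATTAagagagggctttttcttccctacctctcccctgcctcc

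The 3 promoters of MSX1, DLX1 and DLX2 held 24, 23 and 25 CpG dinucleotides, against a median of 11 over all 35116 promoter windows of this length. PRRX1 held 6, with a GATA core match, ELF3 held 4 and TBX19 held 2. ELF3 had a TATA box, found in 10.7% of all windows, and a MEIS core, found in 13%. The TBX19 window held 2 homeodomain cores, a MEIS core and a GATA core; these motifs were found in 4.35%, 13% and 9.17% of all windows. GC boxes, present in 42.6% of all windows, were matched 2 times in MSX1 and 1 time in DLX2. DLX1 held none of the 6 motifs. Windows were found for 26 of the 29 members, 47 in all because several genes have more than 1 start. A homeodomain core was present in 4 of the 47, a forkhead core in 1 of the 47 against 2.98% of all windows, and the median CpG number was 15 for members and 14 for all genes in the table. These matches describe the letters and show no binding.

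PRRX1, a paired-related homeobox factor of mesenchymal cells and of epithelial-mesenchymal transition, had the highest level of all members and rose about 4-fold. Its gene (ENSG00000116132) lies on GRCh38 chromosome 1, 170662728 to 170739419, plus strand. WT replicates 1 to 3 had 3157, 3715 and 3294 normalised counts, and CYGB-OE replicates 1 to 3 had 11543, 14350 and 15228. Every CYGB-OE library lay far above every WT library, and replicate 1 was the lowest of them. The log2 fold change was 2.02 (SE 0.13; adjusted p = 4.61e-06 by edgeR). PRRX1 made up 26.2% to 28.9% of all member counts in WT and 51.3% to 60.9% in CYGB-OE. Z97200.1, a long non-coding RNA gene that overlaps PRRX1 on the same strand, also rose, from 12.6 ± 3.66 to 88.8 ± 21.1 normalised counts (log2 fold change 2.83, SE 0.33; adjusted p = 6.06e-05 by edgeR), and AL354732.1, 130081 bases away, had a log2 fold change of 1.81. Reads shared by overlapping genes cannot be told apart here. Of 10 fibroblast markers listed, 2 were in the table, COL1A2 and COL3A1, whose summed level was 1.1 to 3.95 normalised counts in WT and 38.4 to 193 in CYGB-OE; their part in the PRRX1 result was not tested.

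MSX1, a muscle segment homeobox repressor of the neural crest and of tooth and face development, rose 2.5-fold. Its gene (ENSG00000163132) lies on chromosome 4, 4859666 to 4863936. Normalised counts were 767, 783 and 794 in WT and 1646, 2017 and 2193 in CYGB-OE. The WT libraries lay within a narrow range, and the lowest CYGB-OE library was again replicate 1. The log2 fold change was 1.32 (SE 0.13; adjusted p = 2.21e-05 by edgeR).

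With the planned scaling MEIS2 and MEIS3 moved in opposite directions. Both are TALE homeobox factors, which bind DNA together with HOX and PBX proteins. MEIS2 (ENSG00000134138, chromosome 15, 36889204 to 37101299) had 846, 849 and 821 normalised counts in WT and 2078, 2737 and 2651 in CYGB-OE, with no overlap (log2 fold change 1.57, SE 0.13; adjusted p = 1.12e-05 by edgeR). MEIS3 (ENSG00000105419, chromosome 19, 47403124 to 47419523) had 565, 595 and 616 in WT and 175, 337 and 245 in CYGB-OE. Replicate 1 was the lowest CYGB-OE library for both genes. The log2 fold change of MEIS3 was -1.23 (SE 0.22; adjusted p = 0.000608 by edgeR), which became -0.03 with TMM over the table (adjusted p = 0.918 by edgeR), so the fall of MEIS3 rests on the scaling. MEIS3 has the retrotransposed copies MEIS3P1 and MEIS3P2, neither in the table, so its count is uncertain. Within a library the log2 ratio of MEIS2 to MEIS3 counts needs no scaling between libraries. It was 0.58, 0.51 and 0.41 in WT and 3.57, 3.02 and 3.43 in CYGB-OE, a difference of 2.84 (SE 0.17). The ratio shows that MEIS2 gained on MEIS3, not that MEIS3 fell. The selection of rows alone nearly assured a shift of about 1.99.

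DLX1 and DLX2, Distal-less homeobox genes of the forebrain and branchial arches, stand 9762 bases apart on opposite strands of chromosome 2 and rose together. DLX1 (ENSG00000144355, 172084740 to 172089677) had 824, 804 and 832 normalised counts in WT and 2292, 1576 and 1544 in CYGB-OE. DLX2 (ENSG00000115844, 172099439 to 172102900) had 552, 575 and 556 in WT and 2175, 936 and 966 in CYGB-OE. For both genes CYGB-OE replicate 1 was the highest library, while for PRRX1, MSX1, MEIS2 and GATA3 it was the lowest of the CYGB-OE libraries. The log2 fold changes were 1.14 for DLX1 (SE 0.16; adjusted p = 0.000181 by edgeR) and 1.28 for DLX2 (SE 0.33; adjusted p = 0.00749 by edgeR). Without CYGB-OE replicate 1 they were 0.93 and 0.76, and DLX2 lost its call when adjusted over all 58780 annotated genes (edgeR adjusted p = 0.178). The log2 ratio of DLX1 to DLX2 was 0.55 ± 0.06 in WT and 0.50 ± 0.37 in CYGB-OE (SD, n = 3 each), with overlapping groups.

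The other Distal-less member, DLX6, on chromosome 7 (97005548 to 97011039), fell. It had 80.3, 65.6 and 41.5 normalised counts in WT and 32.0, 29 and 27.3 in CYGB-OE (log2 fold change -1.08, SE 0.30; adjusted p = 0.00631 by edgeR). The WT libraries spread widely, and the lowest of them was still above the CYGB-OE libraries. DLX6-AS1 lies on the opposite strand, and whether the counting used strand is unknown. The log2 ratio of DLX1 to DLX6 went from 3.77 ± 0.50 to 5.92 ± 0.22 (SD, n = 3 each). With TMM over the table the log2 fold change of DLX6 turned to 0.11. The DLX1 to DLX6 ratio does not depend on that scaling, but it does not show that DLX6 fell. The selection of rows alone nearly assured this ratio a shift of about 1.99.

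Near DLX1 and DLX2, ITGA6, an integrin chain that binds laminin and lies 324454 bases from DLX2, rose from 7026 ± 416 to 15910 ± 407 normalised counts (log2 fold change 1.18, SE 0.08; adjusted p = 6.54e-06 by edgeR). AC078883.2, a non-coding gene antisense to the same region, had a log2 fold change of 1.25. HOXD11, the posterior HOX cluster gene of limb patterning, lies further along chromosome 2 (176104216 to 176109754) and fell. Its normalised counts were 38.5, 38.7 and 48.9 in WT and 13.9, 7.82 and 12.7 in CYGB-OE (log2 fold change -1.85, SE 0.31; adjusted p = 0.000452 by edgeR). With TMM over the table the value was -0.66 and the call was lost (adjusted p = 0.114 by edgeR). HOXD11 was the HOX member of the table, and its annotation overlaps that of HOXD10 on the same strand. HAGLROS, a non-coding gene 67963 bases from HOXD11, rose from 24.8 ± 6.70 to 51.8 ± 18.1 normalised counts (log2 fold change 1.06, SE 0.35; adjusted p = 0.0166 by edgeR).

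SIX2, a factor of kidney progenitors and of head mesenchyme, was near the detection limit in WT. It had 0, 6 and 4 counts in WT and 17, 15 and 16 in CYGB-OE, or 0, 4.74 and 4.25 against 18.1, 16.8 and 14.5 normalised counts. The groups did not overlap, as held for 98.3% of the table's rows. The log2 fold change was 2.32 (SE 0.56; adjusted p = 0.00348 by edgeR). With so few WT counts the size of this change is imprecise: it ranged from 1.83 to 2.86 when 1 library was left out. The edgeR adjusted p over all annotated genes was 0.0828.

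The LIM homeobox genes, whose products act in motor neurons, forebrain, limb and kidney, all fell, and all lost that call with TMM over the table. LHX8 had 136, 125 and 141 normalised counts in WT and 48.0, 40.2 and 44.5 in CYGB-OE (log2 fold change -1.60). LMX1B fell from 88.1 ± 17.6 to 29.6 ± 9.65 (log2 fold change -1.57) and LHX4 from 195 ± 9.36 to 97.4 ± 37.8 (log2 fold change -1.01, SE 0.26; adjusted p = 0.00433 by edgeR). LHX4 varied most among the CYGB-OE libraries of these genes, at 71.5, 141 and 80.0. With TMM over the table the log2 fold changes were 0.19 for LHX4, -0.40 for LHX8 and -0.38 for LMX1B (adjusted p = 0.613, 0.116 and 0.340 by edgeR).

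The POU homeobox genes fell as well, of which POU2F2 kept its call with TMM over the table and POU6F1 did not. POU2F2, which encodes the B-cell octamer factor OCT2, had 117, 116 and 134 normalised counts in WT and 34.1, 17.9 and 19.1 in CYGB-OE (log2 fold change -2.36, SE 0.28; adjusted p = 6.65e-05 by edgeR). POU6F1 fell from 144 ± 12.0 to 54.6 ± 5.62 (log2 fold change -1.40), and with TMM over the table it was at -0.21 (adjusted p = 0.429 by edgeR). The log2 ratio of POU2F2 to POU6F1 was -0.24 ± 0.21 in WT and -1.26 ± 0.55 in CYGB-OE (SD, n = 3 each), with no overlap. PAX2, the paired box factor of kidney and eye, did not pass the count filter; it had 22, 14 and 15 counts in WT and 4, 6 and 3 in CYGB-OE.

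**Figure D2:**
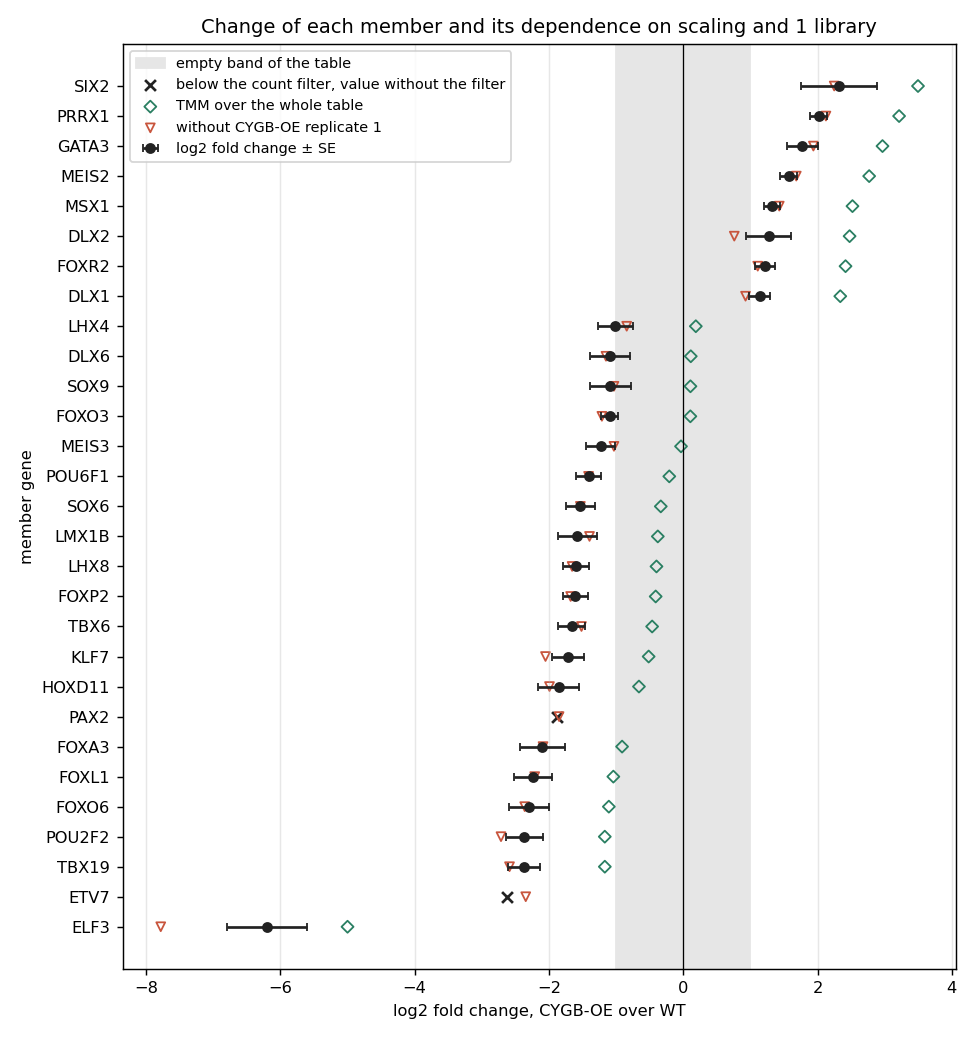
Log2 fold change of CYGB-OE over WT for each member, with black points and bars for the estimate ± SE and crosses for PAX2 and ETV7, which did not pass the count filter. Green diamonds give TMM scaling over the whole table and red triangles the fit without CYGB-OE replicate 1; the grey band is the range that holds no row of the table, and ELF3 and DLX2 shift most without that library.

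Forkhead genes moved both ways. FOXO3, a factor of stress resistance and cell cycle arrest that is held out of the nucleus by AKT, was the most abundant of them in WT. Its gene (ENSG00000118689) lies on chromosome 6, 108559835 to 108684774. It had 1738, 1921 and 1962 normalised counts in WT and 1015, 806 and 813 in CYGB-OE. All CYGB-OE libraries lay below all WT libraries (log2 fold change -1.09, SE 0.12; adjusted p = 5.66e-05 by edgeR), and the value turned to 0.11 with TMM over the table. FOXO3B, a near-identical copy, is in the annotation and not in the table, so reads of FOXO3 are uncertain. FOXO6, a brain-enriched relative, had 34.1, 31.6 and 36.1 in WT and 7.47, 5.58 and 7.27 in CYGB-OE (log2 fold change -2.29, SE 0.29; adjusted p = 0.000108 by edgeR). Within a library, the log2 ratio of FOXO3 to FOXO6 rose from 5.79 ± 0.13 to 7.02 ± 0.19 (SD, n = 3 each). FOXO6 was thus lower relative to FOXO3, and the ratio does not show whether FOXO3 itself fell.

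FOXR2, an X-linked forkhead gene that is silent in most adult tissues and oncogenic when activated, rose. Its gene (ENSG00000189299) lies on chromosome X, 55623400 to 55625325. Normalised counts were 200, 251 and 219 in WT and 594, 499 and 470 in CYGB-OE. The lowest CYGB-OE library was well above the highest WT library. The log2 fold change was 1.22 (SE 0.15; adjusted p = 8.99e-05 by edgeR). The log2 ratio of FOXR2 to FOXO3 was -3.12, -2.93 and -3.16 in WT and -0.77, -0.69 and -0.79 in CYGB-OE, a difference of 2.32 (SE 0.08). The selection of rows alone nearly assured a shift of about 1.99.

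The remaining forkhead members fell at low levels, and FOXL1 alone of these 3 kept its call with TMM over the table. FOXL1, a factor of gut mesenchyme, had 102, 79.0 and 73.3 normalised counts in WT and 17.1, 23.5 and 13.6 in CYGB-OE (log2 fold change -2.24, SE 0.29; adjusted p = 0.000110 by edgeR). FOXA3, a pioneer factor of liver and gut, had 30.8, 28.5 and 25.5 in WT and 6.40, 8.93 and 4.54 in CYGB-OE (log2 fold change -2.10, SE 0.33; adjusted p = 0.000349 by edgeR). FOXP2, known from speech and language disorder, had 169, 213 and 200 in WT and 69.3, 65.9 and 56.3 in CYGB-OE (log2 fold change -1.61, SE 0.18; adjusted p = 5.87e-05 by edgeR). In none of the 3 did a CYGB-OE library reach the lowest WT library, and the groups were separate in 98.3% of the table's rows. With TMM over the table FOXA3 was at -0.91 and FOXP2 at -0.41 (adjusted p = 0.0523 and 0.110 by edgeR).

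ELF3, an epithelial ETS factor that is induced in inflammation, had the largest change of all members. Its gene (ENSG00000163435) lies on chromosome 1, 202007945 to 202017188. The counts were 963, 1277 and 921 in WT and 31, 3 and 6 in CYGB-OE, or 1059, 1009 and 979 against 33.1, 3.35 and 5.45 normalised counts. The WT libraries were close to each other, and CYGB-OE replicate 1 was far above the other CYGB-OE libraries. The log2 fold change was -6.19 (SE 0.59; adjusted p = 7.45e-05 by edgeR), and -7.78 without CYGB-OE replicate 1. ELF3-AS1, which overlaps it on the other strand, fell as well, from 27.4 ± 4.41 to 1.37 ± 1.65 normalised counts (SD, n = 3 each). GPR37L1, a receptor gene 105670 bases away, fell from 68.9 ± 17.8 to 2.49 ± 4.31, with 0 counts in CYGB-OE replicates 2 and 3. Of 11 keratinocyte or epithelial markers listed, 1 was in the table, KRT14, at 13.8 to 20.5 normalised counts in WT and 51.8 to 68.1 in CYGB-OE; its part was not tested. ETV7, an interferon-inducible ETS repressor, did not pass the count filter, with 13, 14 and 14 counts in WT and 1, 3 and 2 in CYGB-OE.

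T-box genes fell, of which TBX19 kept its call with TMM over the table and TBX6 did not. TBX19, the pituitary factor of POMC-producing cells, lies on chromosome 1 (168281040 to 168314426) and had 333, 240 and 351 normalised counts in WT and 76.8, 49.1 and 52.7 in CYGB-OE (log2 fold change -2.37, SE 0.24; adjusted p = 2.91e-05 by edgeR). TBX6, a factor of paraxial mesoderm and somites, lies on chromosome 16 (30085793 to 30091887) and had 177, 153 and 162 in WT and 40.5, 59.2 and 55.4 in CYGB-OE (log2 fold change -1.66, SE 0.20; adjusted p = 8.40e-05 by edgeR). Neither gene's groups overlapped, as held for 98.3% of the table's rows. With TMM over the table TBX6 was at -0.46 (adjusted p = 0.0907 by edgeR). All 8 table genes within 500 kb of TBX6 fell, among them YPEL3, 427 bases away, which went from 1401 ± 29.8 to 383 ± 33.6 normalised counts (log2 fold change -1.87, SE 0.11; adjusted p = 4.18e-06 by edgeR). The log2 fold changes of these 8 neighbours ran from -1.87 (YPEL3) to -1.06 (MVP). TMM over the table raises every log2 fold change by about 1.20, so the falls near that size rest on the scaling. Of all rows tested 70.9% were lower, or 19.4% with TMM over the table.

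The SOX genes fell, and both lost that call with TMM over the table. SOX9, a factor of cartilage and of neural crest stem cells, had 44.0, 81.4 and 58.5 normalised counts in WT and 26.7, 24.6 and 35.4 in CYGB-OE (log2 fold change -1.08, SE 0.31; adjusted p = 0.00728 by edgeR). WT replicate 2 was the highest library, and without it the log2 fold change was -0.82. With TMM over the table the value turned to 0.11. SOX6, which acts in cartilage, muscle and red cells, fell from 117 ± 15.2 to 40.1 ± 6.43 (log2 fold change -1.53), and with TMM over the table it was at -0.33 (adjusted p = 0.257 by edgeR).

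Of the zinc finger members GATA3 rose and KLF7 fell, the latter call being lost with TMM over the table (-0.51; adjusted p = 0.113 by edgeR). GATA3, a factor of T cells, breast and sensory ganglia, rose from a low level. Its gene (ENSG00000107485) lies on chromosome 10, 8045378 to 8075203. It had 51.7, 60.1 and 48.9 normalised counts in WT and 138, 186 and 226 in CYGB-OE (log2 fold change 1.77, SE 0.23; adjusted p = 0.000115 by edgeR). KLF7, a Krüppel-like factor of neurons, had 467, 533 and 543 in WT and 222, 134 and 115 in CYGB-OE (log2 fold change -1.71, SE 0.24; adjusted p = 0.000162 by edgeR). CYGB-OE replicate 1 was nearest to WT for both genes. GATA3-AS1 lies on the opposite strand to GATA3, and 14 of the 29 members overlap a gene of the opposite strand in GENCODE 29.

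**Figure D3:**
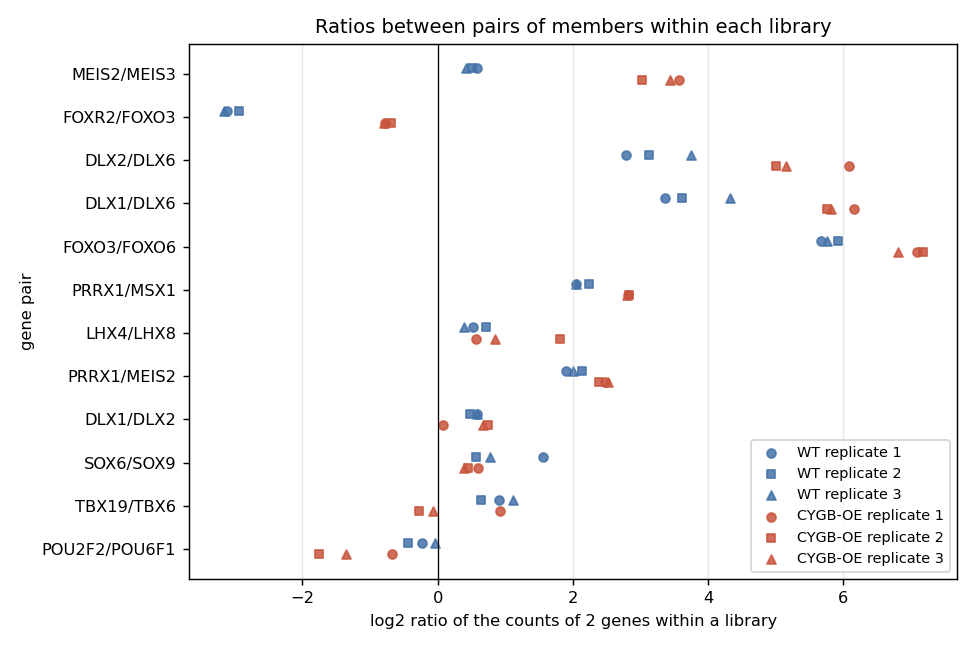
Log2 ratio of the counts of 2 members in each library for 12 pairs, WT in blue and CYGB-OE in red, with the marker shape giving the replicate. MEIS2 over MEIS3 and FOXR2 over FOXO3, whose genes moved in opposite directions with the planned scaling, have the largest shifts, 2.84 and 2.32. DLX1 over DLX2 overlaps between the groups.

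Ratios within a library were compared for 12 pairs of members, chosen with earlier results of these data known. In 8 pairs the groups did not overlap. Each of these gave p = 0.10 in a two-sided exact permutation test, the smallest that 3 against 3 libraries allow, and adjusted p = 0.15 over the 12 pairs. Such ratios are free of the factor that sets the level between the groups and show unequal change, not which gene stayed level. For MEIS2 to MEIS3, DLX1 to DLX6, DLX2 to DLX6 and FOXR2 to FOXO3 the genes moved in opposite directions with the planned scaling. The selection of rows alone nearly assured them a shift of about 1.99, the width of the empty band, so their separation is no support. PRRX1 gained on MSX1 by 0.70 (SE 0.07) and on MEIS2 by 0.45 (SE 0.08) on the log2 scale. LHX4 to LHX8, SOX6 to SOX9, TBX19 to TBX6 and DLX1 to DLX2 overlapped between the groups.

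Levels of different genes were compared per kilobase of exon, with the exon length taken as the union of all annotated exons. In WT the order began with PRRX1 at 411 ± 35.2, MSX1 at 369 ± 6.52, FOXO3 at 243 ± 15.5, DLX1 at 224 ± 3.99 and DLX2 at 189 ± 4.21 normalised counts per kb (SD, n = 3 each). The libraries of FOXO3 and DLX1 overlapped in WT, and those of the other neighbours among these did not. ELF3 had place 6, at 141 ± 5.63, and moved to place 27 in CYGB-OE, at 1.94 ± 2.31. In CYGB-OE the first places were PRRX1 at 1662 ± 233, MSX1 at 921 ± 132, DLX1 at 493 ± 116, DLX2 at 458 ± 238, FOXR2 at 271 ± 33.7 and MEIS2 at 230 ± 33.2. The libraries of DLX1 and DLX2 overlapped, as did those of FOXR2 and MEIS2. FOXO3 had place 7, at 114 ± 15.4. GATA3 moved from place 19 to place 8, and SIX2 from place 29 to place 17.

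**Figure D4:**
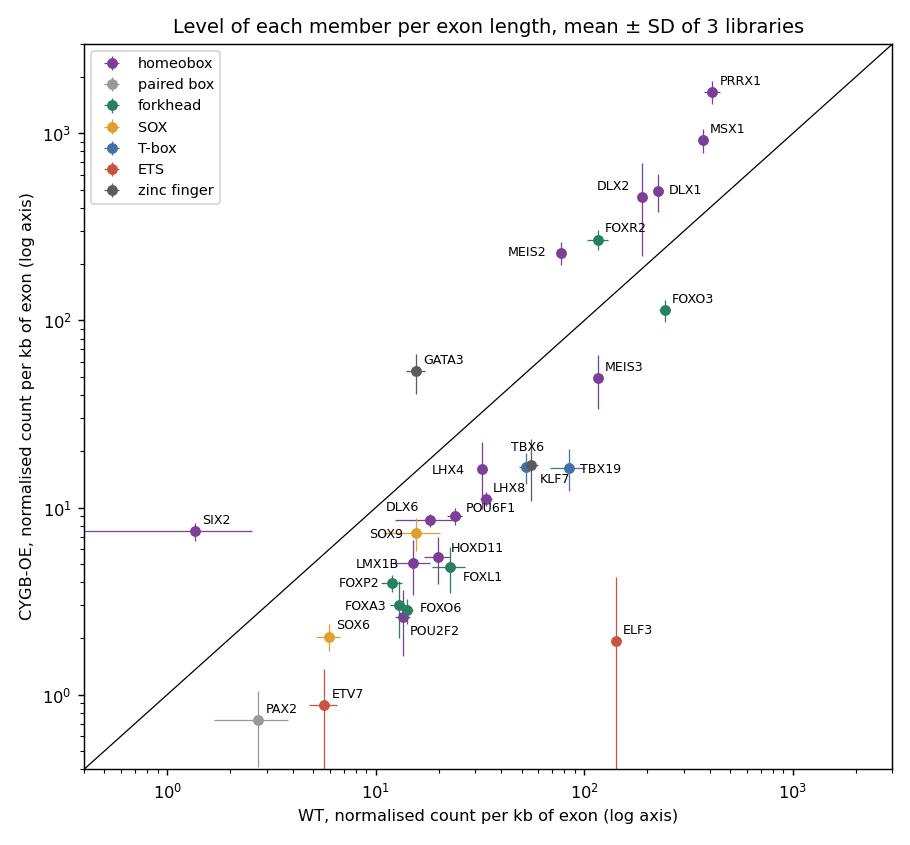
Mean normalised count per kb of exon in WT (horizontal, log axis) and CYGB-OE (vertical, log axis) for each member, coloured by family, with bars for ± SD of 3 libraries that run to the axis edge where they pass it. The diagonal marks equal levels; PRRX1 is at the upper right, and ELF3 falls from 141 to 1.94.

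Partners of these factors were read from lists of cofactors and pathway genes. Of 29 Groucho, EYA, DACH, FOG and LIM cofactors, 4 were in the table and all 4 fell, also with TMM over the table; of all rows tested, 70.9% were lower, or 19.4% with that scaling. ZFPM2, which binds GATA factors, fell from 282 ± 26.2 to 26.1 ± 8.91 normalised counts (log2 fold change -3.43, SE 0.25; adjusted p = 7.06e-06 by edgeR), while GATA3 rose. TLE2, a Groucho corepressor, fell from 414 ± 34.6 to 123 ± 11.9 (log2 fold change -1.75), DACH1, a corepressor that works with EYA proteins, fell from 33.1 ± 3.02 to 2.06 ± 0.22, and LMO3, a LIM-only protein, had a mean of 19.3 in WT and of 0.30 in CYGB-OE. Of 10 TALE partners 1 was in the table: PKNOX2, a TALE factor related to MEIS, fell from 224 ± 4.27 to 44.9 ± 7.46 (log2 fold change -2.32, SE 0.19; adjusted p = 1.15e-05 by edgeR). Of 33 polycomb genes, whose products silence HOX and other developmental genes, 1 was in the table, CBX7, at a log2 fold change of -1.21 that became -0.01 with TMM over the table, and of 10 trithorax and H3K27 demethylation genes 0 were.

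Signalling genes that act on these families were mostly lower, like the table as a whole, whose median log2 fold change was -1.29 over the rows tested. Of 51 BMP and TGF-beta genes, 9 were in the table and all 9 fell (median -1.27), of which 1 was still lower past the threshold under TMM over the table. The share of all rows tested that were lower was 70.9%, or 19.4% with that scaling. BMP4, the ligand that acts on MSX and DLX genes in the embryo, fell from 165 ± 16.8 to 68.6 ± 10.3 (log2 fold change -1.27), which became -0.07 with that scaling. The gene still lower was CHRD, a BMP antagonist, at -2.86 and, with TMM over the table, -1.68 (adjusted p = 0.0208 by edgeR); it is named outside the naming rule, after its values were seen. INHBA, SMAD3 and LTBP4, the most abundant, had log2 fold changes of -2.37, -1.21 and -1.13, which became -1.17, -0.01 and 0.07 with that scaling, none past the threshold. INHBA was -3.13 without CYGB-OE replicate 1.

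Of 53 WNT genes, 13 were in the table, of which 3 rose and 10 fell (median -1.21), against 3 and 2 with TMM over the table. For these and the next lists, the shares of all rows tested were 28.9% higher and 70.9% lower. They were 28.9% and 19.4% with that scaling. DKK1, a secreted WNT antagonist, rose from 268 ± 29.1 to 833 ± 309, and LGR5, an R-spondin receptor, from 6.58 ± 4.05 to 61.5 ± 14.3 (log2 fold changes 1.63 and 3.13). FZD1, FZD9 and TCF7L1 had log2 fold changes of -1.33, -1.07 and -1.79. With that scaling they were at -0.13, 0.12 and -0.59, and FZD1 and FZD9 lost their calls. Of 28 Notch genes, 8 were in the table; NOTCH3 rose (log2 fold change 1.20) and 7 fell, among them MAML2, HES7 and DTX1 at -1.001, -1.55 and -1.58. TMM over the table left 1 Notch gene higher and 2 lower, and MAML2 turned to 0.20. Of 14 hedgehog genes 3 were in the table: BOC rose, at 1.13, and GAS1 and HHIP fell, at -1.03 and -2.53, of which GAS1 turned to 0.17 with TMM over the table. Of 19 retinoic acid genes STRA6 and RXRG were in the table and fell, at -1.55 and -2.09. STRA6 was at -2.19 without CYGB-OE replicate 1 and lost its call with TMM over the table (-0.35; adjusted p = 0.543 by edgeR), while RXRG kept it (-0.89; adjusted p = 0.00647 by edgeR).

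Of 21 ERK-ETS feedback genes 2 were in the table, and the 1 tested, PHLDA1, fell by 1.10 on the log2 scale, a value that turned to 0.10 with TMM over the table. Of 19 genes listed as targets of KLF2, KLF4 and FOXO factors, TXNIP, BCL6 and PIK3IP1 were in the table and all 3 fell, at -5.14, -1.73 and -3.76, also with TMM over the table, where 19.4% of all rows tested were lower. Of 70 other developmental transcription factors outside the name rule, 12 were in the table, of which 3 rose and 9 fell, against 3 and 2 with TMM over the table. The shares of all rows tested were 28.9% higher and 70.9% lower, or 28.9% and 19.4% with that scaling. The homeobox genes ISL1 and ALX4 rose, at log2 fold changes of 1.10 and 1.01, as did GRHL3, at 1.83. SATB1 and BHLHE41, with ISL1 the most abundant, fell, at -1.05 and -1.24. With TMM over the table they were at 0.15 and -0.04 and lost their calls. EHF, the epithelial ETS factor closest to ELF3, fell from 114 ± 14.1 to 14.3 ± 12.6 (log2 fold change -3.01, SE 0.47; adjusted p = 0.000346 by edgeR; -4.00 without CYGB-OE replicate 1). SNAI2, a neural crest repressor, fell from 53.6 ± 14.2 to 19.2 ± 8.11 and lost its call with TMM over the table (-0.28; adjusted p = 0.607 by edgeR).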

How the data were processed

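Polyadenylated RNA of 6 libraries was sequenced, per the labels' protocols, which cover strand-keeping and other kits without saying which was used. The authors deposited raw counts per gene, per the file headers; GRCh38, STAR 2.5.2b, Trimmomatic 0.36, Subread 1.5.2 and featureCounts are named in the submitters' processing notes. The sources used here do not give the annotation, strand setting or selection rule. The rows include 163 loci with no gene name (1.25% to 1.64% of counts), which were kept as features in totals and tests.

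Counts were tested with edgeR 4.0.16 (R 4.3.3; quasi-likelihood F test, robust, two-sided; filterByExpr with a minimum count of 10 on table totals; group as the only term). Because the table was taken to hold changed rows, TMM was run inside each group. The 2 groups were then set level at the centre of the empty band of log2 ratios, which assumes a cut of equal size in both directions. This scaling was the planned one, set with earlier results of these data known, and TMM over the table was an alternative. SE were derived from F. The biological coefficient of variation was 20.5%. Alternatives were 4 other scalings, other filters, DESeq2 1.42.0, limma-voom (limma 3.58.1), adjustment over all 58780 genes of GENCODE 29, a replicate block and leaving out each library.

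On 2778 simulated rows for CYGB-OE against WT, edgeR recovered 85% of 2-fold and 100% of 4-fold changes with 4 false calls. Most simulated rows were unchanged and the library factors were known, unlike in the real table. These figures therefore do not cover the selection of rows or the level between the groups. The members and gene lists were chosen with earlier results of these data known. Named in full were the up to 10 tested members with the largest change in each direction (8 rose), the 10 with the highest mean count and the HOX member. From the lists of partners and pathways, the most abundant called genes and direct partners were named. Further list genes were named outside that rule, among them CHRD, LGR5, TCF7L1, NOTCH3, ALX4, GRHL3, EHF and SNAI2. The depth of each library is unknown, since totals cover selected rows. No library pair of a group agreed within sampling noise, so none was counted as 1. Coordinates are from GENCODE 29 on GRCh38 and promoters from RefSeq on GRCh38.p14.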

Additional observations from a re-analysis of the deposited data

How the results depend on the processing

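All 8 members called higher stayed higher past the threshold under every alternative run except adjustment over all annotated genes, where DLX2 and SIX2 lost their calls and 6 remained. The 4 other scalings all raised the log2 fold changes, so they put the higher calls to no real test. No scaling that lowers the log2 fold changes was run. The 19 lower calls depended on the scaling: 5 were lower past the threshold with TMM over the table and 5 with DESeq2 size factors, against 19 with total counts and 13 with upper-quartile factors, and 16 when adjusted over all annotated genes. TMM and DESeq2 size factors turned 4 members positive without a call: DLX6 (0.11 and 0.12), FOXO3 (0.11 and 0.12), LHX4 (0.19 and 0.19) and SOX9 (0.11 and 0.12). These scalings assume that most rows are unchanged, which this table does not meet if its rows were cut at about 2-fold in both directions. Over all rows tested, 1749 lower calls became 480, 476 and 910 with TMM, DESeq2 size factors and upper-quartile factors. Of the genes on the lists of partners and pathways, 55 lower calls became 17, 17 and 28, and 8 higher calls became 5 when adjusted over all annotated genes. The 4 scalings shifted the median by 1.20, 1.20, 0.86 and 0.34 log2 units. The DESeq2 test, limma-voom and the filters changed no member's call. Leaving out 1 library gave 8 higher and 19 to 21 lower members, and over all rows 708 to 751 higher and 1761 to 1840 lower; where 21 members were lower, PAX2 and ETV7 passed the filter, as they did without a filter and with the filter on scaled library sizes, an alternative chosen after the data were seen. Replicate numbers are shared by the groups in the labels but no label says what they pair. Same-numbered libraries deviated from their group means with correlations of -0.0127, -0.0689 and -0.000475 across rows. Such weak values show no clear pairing and cannot tell whether same-numbered libraries share a culture or batch. With the replicate as a block, 8 members were higher and 19 lower, and over all rows 712 and 1750.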

Other observations

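Names of the same families that hold a hyphen were left out by the rule and gave 7 further rows, of which 1 is a protein-coding factor and 6 are antisense RNAs. NKX2-1, a homeobox factor of lung and thyroid, had 155, 120 and 174 normalised counts in WT and 51.2, 52.5 and 74.5 in CYGB-OE (log2 fold change -1.32, SE 0.23; adjusted p = 0.000627 by edgeR). Of the antisense RNAs, PAX8-AS1 was higher, from 55.4 ± 10.8 to 137 ± 36.2 (log2 fold change 1.30). The others were lower: FOXD2-AS1 (-1.06), FOXD3-AS1 (-1.18), MEIS1-AS3 (-1.74), TBX2-AS1 (-1.61) and ELF3-AS1, whose values stand beside ELF3. TMM over the table raises every log2 fold change by about 1.20. The falls of NKX2-1, FOXD2-AS1 and FOXD3-AS1 were near that size and rest on the scaling. The sense partners FOXD2, FOXD3, MEIS1, TBX2 and PAX8 were not among the members of the table.

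Genes of the table that lie within 500 kb of a member were counted for 17 of the 29 members. Of the 41 member and neighbour combinations in which both were tested, 34 had the same direction and 7 the opposite. All 8 combinations of a member that rose were of the same direction, and they come from 2 places, DLX1 with DLX2 and PRRX1. For members that fell, 26 were the same and 7 opposite, and 8 of the 26 were neighbours of TBX6. Of all rows tested 70.9% were lower and 28.9% higher, and these counts are a description with no test. Directions here are those of the planned scaling. DLX1 and DLX2 count each other and share their neighbours. The deposited table stored 3 gene names as calendar dates, among them a neighbour of TBX6; no member name has that form.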
